A study of Mus musculus with 12 samples.

Results

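The 10 genes described here mark monocytes and the macrophages that line the vessels and membranes at the borders of the brain. They were taken by gene name from the 25749 genes listed for each of 12 libraries of mouse brain RNA, and all 10 names were found. Ccr2, Ly6c2, Plac8, Ms4a4c and F13a1 are grouped below as monocyte markers, and Ms4a7, Ms4a6c, Mrc1, Cd163 and Lyve1 as border macrophage markers, although F13a1 and Ms4a6c are known from both kinds of cell. The samples were 4 injured B6 mice given anti-LFA1/VLA4 continuously, 4 injured B6 mice and 4 uninjured B6 mice, and the injury was a cerebrovascular one, per the title of the series. All 12 mice were males aged 13 weeks. They were perfused with saline and their tissue was taken as a cube with edges of 3 mm, which the protocol dates to day 20 after the injury, and 500 ng of total RNA entered each library. LFA1 and VLA4 are integrins that leukocytes use to hold on to vessel walls and leave the blood, and antibodies against them are used to keep leukocytes out of tissue. The labels give no dose, no control antibody and no uninjured mice given the antibodies, so the effect of the antibodies cannot be told apart from any effect of being given antibodies at all.

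Monocytes leave the bone marrow with the help of Ccr2, a receptor for chemokines of the Ccl2 type, and can enter injured tissue and become macrophages there. Border macrophages live around vessels and in the meninges, and they carry scavenger receptors such as the products of Mrc1, Cd163 and Lyve1. Microglia, the macrophages of the brain tissue itself, make little of these 10 transcripts in healthy brain and share with the other cells general myeloid genes such as Csf1r.

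Reads over exons numbered 13330379 to 13917157 per library in injured mice given the antibodies, 15507462 to 16121577 in injured mice and 15159988 to 15781229 in uninjured mice, so the first group was sequenced least deeply. Each library held at least 10 reads of all 10 genes of a list of neuron, glia and endothelium markers. Levels are given as normalised CPM, reads scaled to the effective size of the library, and tests are edgeR quasi-likelihood tests over 14771 genes with Benjamini-Hochberg adjustment at 0.05. A count filter had to be passed before a gene was tested, and 7 of the 10 genes passed it. Ly6c2, Plac8 and Ms4a4c did not, and their tests come from a second edgeR fit of 20684 genes with no filter. The libraries of 1 group are called separate mice in the labels.

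Among the genes tested, 4 of 7 were higher in injured mice given the antibodies than in injured mice (Ccr2, Ms4a7, Ms4a6c and Mrc1), where 10.9% of all genes tested were called higher, and 0 were lower, where 10.7% were. Against uninjured mice 5 of 7 were higher in antibody-treated mice (these 4 and F13a1), with 6.30% of all genes called higher, and 0 were lower, with 3.22% called lower. Injured mice without antibodies had 2 of 7 higher than uninjured mice (Ms4a7 and Ms4a6c), with 11.9% of all genes called higher, and 0 lower, with 11.0% called lower. Median log2 fold changes over these 7 genes were 0.76, 1.06 and 0.33 in the order of those comparisons, beside 0.013, 0.011 and 0.025 over all genes tested. The medians leave out the 3 genes that failed the filter. At an unadjusted p under 0.05 edgeR also had 0 of these 7 lower in each comparison, and DESeq2 called 0 lower. In the fit with no filter, 6 of the 10 genes were called higher and 0 lower in treated than in injured mice, where 7.86% and 5.76% of all genes were. Against uninjured mice 8 of 10 were higher and 0 lower in treated mice (4.38% and 1.99% of all genes), and 2 of 10 were higher and 0 lower in injured mice (5.92% and 7.93%). The comparisons share libraries: uninjured mice stand in 2 of them, and so do the treated and the injured mice.

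**Figure D1:**
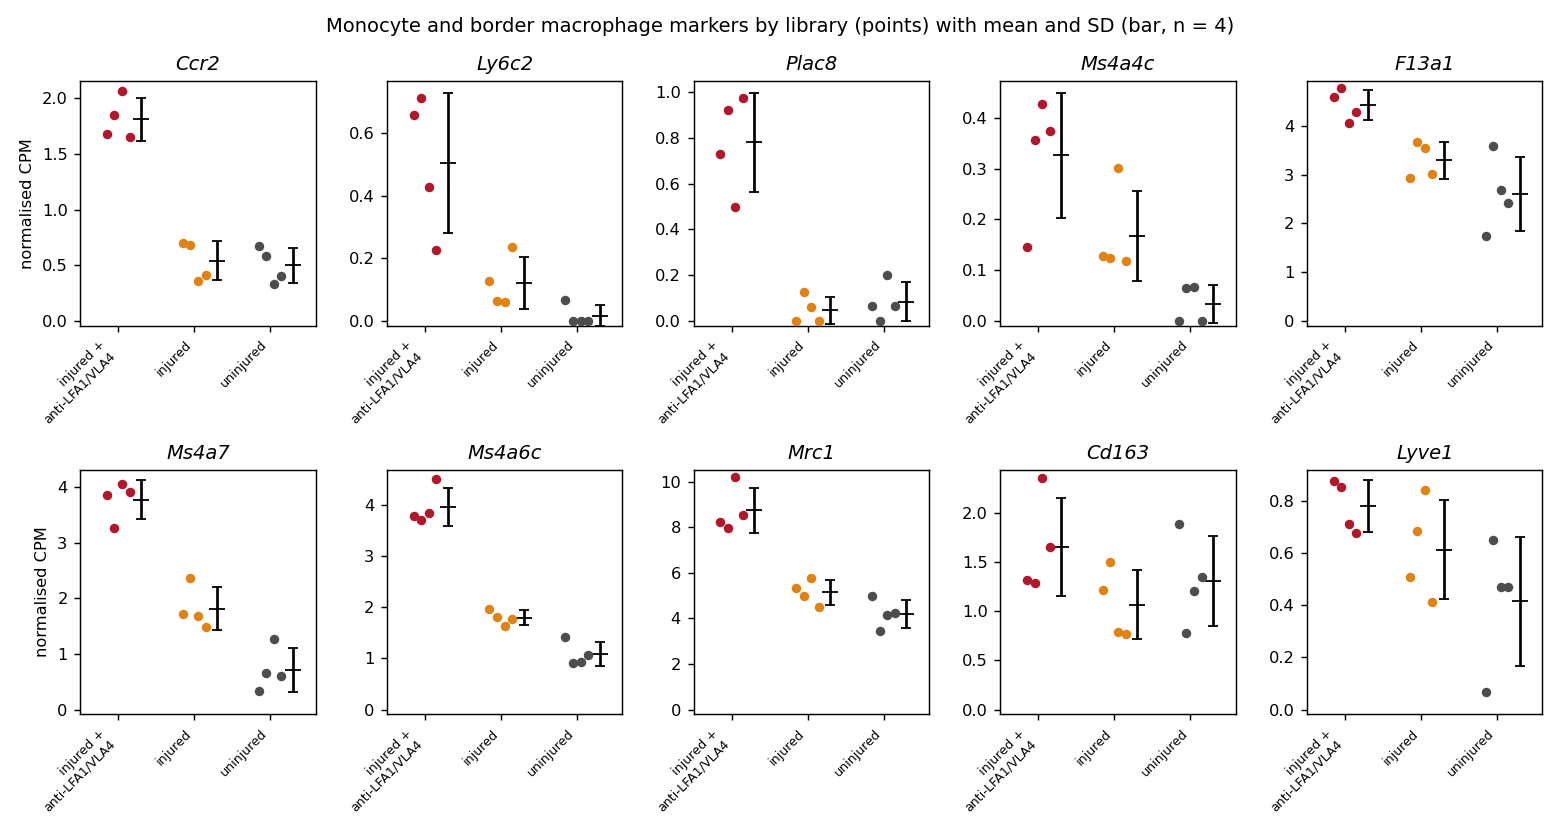
Level of each of the 10 genes in every library, in normalised CPM on the vertical axis, with injured mice given anti-LFA1/VLA4, injured mice and uninjured mice from left to right. Points are libraries and bars show the mean and SD of 4. Treated libraries of Ccr2 lie between 1.65 and 2.07 CPM, above every other library, while those of Cd163 overlap the other groups.

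Ccr2, the receptor that brings monocytes out of the marrow and towards Ccl2, lies on chromosome 9 at 124101950 to 124113557 (GRCm38, as are all positions below). It had 23, 26, 29 and 22 exon reads in the libraries of injured mice given the antibodies, 11, 11, 6 and 7 in injured mice, and 10, 9, 5 and 6 in uninjured mice. Every treated library stood above every other library, and the injured and uninjured libraries overlapped. Its level was 1.81 ± 0.192 CPM in antibody-treated mice, 0.540 ± 0.177 in injured mice and 0.499 ± 0.157 in uninjured mice (SD, n = 4 each). Ccr2 was 3.34-fold higher in treated than in injured mice (log2 fold change 1.74, SE 0.25, edgeR adjusted p = 0.000565). Set against uninjured mice the difference was 3.59-fold (log2 fold change 1.84, SE 0.25, edgeR adjusted p = 0.000413). Injured and uninjured mice were not distinguished, with a log2 fold change of 0.10 and a 95% interval of -0.56 to 0.76 (edgeR adjusted p = 0.854). Ccr2 met the count filter through the treated libraries, where it was high, but without a filter its edgeR adjusted p was 0.000576 against injured mice as well. In tissue RNA, fewer cells of a type and less RNA per cell cannot be told apart, here and for each gene below.

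Plac8, a small cysteine-rich protein abundant in monocytes and granulocytes, lies on chromosome 5 at 100553725 to 100572245. It had 10, 13, 7 and 13 reads in treated libraries, against 0, 2, 1 and 0 in injured and 1, 0, 3 and 1 in uninjured libraries. The treated libraries lay above all others, and the 2 other groups could hardly be measured at this depth. Summed over libraries and corrected for depth, 43 reads in treated mice against 3 in injured mice gave a ratio of 17.0 (95% counting interval 5.43 to 85.5), and 43 against 5 in uninjured mice gave a ratio of 9.37 (3.72 to 30.3). Without a filter, the edgeR adjusted p was 0.00130 against injured mice and 0.00413 against uninjured mice. Injured against uninjured mice gave an edgeR adjusted p = 0.629. Counting intervals here and below cover counting error only, and reads without molecular identifiers are not independent molecules.

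Ly6c2 encodes the surface antigen by which inflammatory monocytes are sorted, and lies on chromosome 15 at 75108158 to 75111970 on the minus strand. Its neighbour Ly6c1, made by brain endothelium, is so alike that short reads can be hard to assign, and the start of both coding sequences is shown for that reason (GENCODE M21). Capitals mark the 6 bases that differ within coding bases 1 to 150. This stretch was chosen because no other of its length holds more differences, so the rest of the coding sequences is no less alike.
Ly6c2: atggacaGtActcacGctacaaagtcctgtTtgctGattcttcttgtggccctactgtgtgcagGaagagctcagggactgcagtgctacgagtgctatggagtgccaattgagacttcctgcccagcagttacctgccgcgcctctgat
Ly6c1: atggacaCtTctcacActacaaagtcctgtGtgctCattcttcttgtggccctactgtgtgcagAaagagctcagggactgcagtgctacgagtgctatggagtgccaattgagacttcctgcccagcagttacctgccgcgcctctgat
Both coding sequences have 393 bases and are 97.7% identical. Of all 50-base stretches of Ly6c2 transcripts, 14.4% also occur in transcripts of other genes, Ly6c1 among them, and 75.7% of the Ly6c2 exon reads were unique. Ly6c2 had 9, 10, 6 and 3 reads in treated libraries, 2, 1, 1 and 4 in injured libraries and 1, 0, 0 and 0 in uninjured libraries. Treated libraries lay above uninjured ones, while 1 injured library with 4 reads reached above the lowest treated one. The ratio of treated to injured mice was 4.15 (95% counting interval 1.84 to 10.5; edgeR with no filter, adjusted p = 0.0266). Against the 1 read of the uninjured group it was 30.5 (5.04 to 1247; edgeR with no filter, adjusted p = 0.00300). Injured mice had 8 reads and uninjured mice 1, and the edgeR adjusted p of that difference was 0.132. Ly6c1 itself, whose level was 40.0 ± 6.44 CPM in treated, 33.0 ± 1.68 in injured and 35.5 ± 3.00 in uninjured mice (SD, n = 4), did not pass the test in any comparison (edgeR adjusted p = 0.0789, 0.305 and 0.482 for treated against injured, treated against uninjured and injured against uninjured mice). In treated against injured mice Ly6c1 was called higher by DESeq2 (log2 fold change 0.28), without antibody-treated replicate 3 (0.38) and once a GC and length trend was taken out (0.21). That removal also called it lower in injured than in uninjured mice at -0.21, and leaving out that replicate called it higher in treated than in uninjured mice at 0.25.

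Ms4a4c, a tetraspan membrane protein of the Ms4a family found in monocytes, lies on chromosome 19 at 11404770 to 11427246. It had 2, 5, 6 and 5 reads in treated libraries, 2, 2, 5 and 2 in injured and 0, 1, 1 and 0 in uninjured libraries. Treated and injured libraries overlapped, and both stood above the uninjured ones. The ratio to uninjured mice was 9.80 in treated mice (95% counting interval 2.35 to 87.1; edgeR with no filter, adjusted p = 0.0213) and 5.06 in injured mice (1.10 to 47.0; adjusted p = 0.0992 in the same edgeR fit). Treated against injured mice gave a ratio of 1.94 (0.867 to 4.54; edgeR adjusted p = 0.278 with no filter). A pseudogene on the opposite strand overlaps Ms4a4c, and reads of the pair cannot be told apart with certainty since the use of strand in counting is not stated. Of its 50-base stretches 8.19% are shared with other genes, among them Ms4a4b and Ms4a4d.

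F13a1, the A subunit of coagulation factor XIII, which crosslinks fibrin and is made by monocytes and border macrophages, lies on chromosome 13 at 36867178 to 37050244. It had 63, 67, 57 and 57 reads in treated, 46, 59, 59 and 51 in injured and 26, 55, 40 and 36 in uninjured libraries. Its level was 4.43 ± 0.315 CPM in treated, 3.29 ± 0.374 in injured and 2.61 ± 0.761 in uninjured mice (SD, n = 4). On that scale the treated libraries stood above all others, and the uninjured libraries were the most spread. F13a1 was 1.69-fold higher in treated than in uninjured mice (log2 fold change 0.76, SE 0.18, edgeR adjusted p = 0.0170). That call was lost without antibody-treated replicate 1 (edgeR adjusted p = 0.0507), antibody-treated replicate 2 (0.0568) or uninjured replicate 4 (0.0544), and with only those groups in the fit (0.0508). Treated against injured mice gave a log2 fold change of 0.43 (SE 0.17, edgeR adjusted p = 0.0923), which reached 0.0495 without uninjured replicate 1. Injured against uninjured mice gave 0.33 (SE 0.18, edgeR adjusted p = 0.185), which passed in limma on log2(TPM + 0.1) at 0.51 (adjusted p = 0.0384). A pair of antisense genes lie within F13a1.

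Ms4a7, a tetraspan protein that marks macrophages outside the microglia, lies on chromosome 19 at 11321039 to 11336146 on the minus strand. It had 53, 46, 57 and 52 reads in treated, 27, 38, 28 and 25 in injured and 5, 10, 19 and 9 in uninjured libraries. The 3 groups did not overlap in any pair, and uninjured replicate 3 stood highest of its group. Levels were 3.78 ± 0.346 CPM in treated, 1.81 ± 0.383 in injured and 0.717 ± 0.397 in uninjured mice (SD, n = 4). Ms4a7 was 2.08-fold higher in treated than in injured mice (log2 fold change 1.06, SE 0.23, edgeR adjusted p = 0.00635). Against uninjured mice it was 5.22-fold higher in treated mice (log2 fold change 2.38, SE 0.27, edgeR adjusted p = 8.155e-05) and 2.51-fold higher in injured mice (log2 fold change 1.33, SE 0.29, edgeR adjusted p = 0.0100). Of its 369 exon reads, 70.5% crossed an exon junction and 100% were unique.

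Ms4a6c, another member of the family, lies nearby at 11469366 to 11482192. It had 52, 52, 54 and 60 reads in treated, 31, 29, 27 and 30 in injured and 21, 14, 14 and 16 in uninjured libraries. Again no pair of groups overlapped. Levels were 3.96 ± 0.367 CPM in treated, 1.795 ± 0.143 in injured and 1.08 ± 0.229 in uninjured mice (SD, n = 4). The log2 fold change was 1.14 for treated against injured mice (SE 0.14, edgeR adjusted p = 0.000250), 1.86 for treated against uninjured mice (SE 0.16, edgeR adjusted p = 6.415e-06) and 0.72 for injured against uninjured mice (SE 0.17, edgeR adjusted p = 0.0135). A transcript on the opposite strand overlaps Ms4a6c, and 10.5% of its 50-base stretches occur in other genes, Ms4a6b among them. Ms4a6b is its close copy downstream, and the resemblance extends to the bases before the start site. In the 250 bases before the Ms4a6c start in the RefSeq table (GRCm38.p6, chr19:11469118-11469367, plus strand), capitals mark the 72 bases in runs of at least 20 that also occur before the Ms4a6b start, the longest run being 48 bases.
Ms4a6c: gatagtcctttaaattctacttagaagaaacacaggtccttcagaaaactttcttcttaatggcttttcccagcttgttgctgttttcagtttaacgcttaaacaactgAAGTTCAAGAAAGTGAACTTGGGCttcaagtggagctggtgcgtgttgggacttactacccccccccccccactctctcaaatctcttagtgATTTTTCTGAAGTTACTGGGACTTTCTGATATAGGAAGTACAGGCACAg
Both Ms4a6b and Ms4a6d, which were not chosen as markers, passed the test in the same direction in the antibody comparisons. Ms4a6d was at 3.89 ± 0.248 CPM in treated, 1.85 ± 0.299 in injured and 1.40 ± 0.266 in uninjured mice, and Ms4a6b at 2.62 ± 0.285, 0.995 ± 0.217 and 1.35 ± 0.330 (SD, n = 4, same order). Against injured mice the log2 fold change in treated mice was 1.06 for Ms4a6d (SE 0.15, edgeR adjusted p = 0.000671) and 1.39 for Ms4a6b (SE 0.20, edgeR adjusted p = 0.000719). Against uninjured mice it was 1.47 and 0.95 (edgeR adjusted p = 7.752e-05 and 0.00818). In injured against uninjured mice neither passed (0.40 for Ms4a6d and -0.43 for Ms4a6b, edgeR adjusted p = 0.120 and 0.160), but Ms4a6d passed there in limma on log2(TPM + 0.1) at 0.55 (adjusted p = 0.0156). The other 13 genes of the family list had too few reads for the test.

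**Figure D2:**
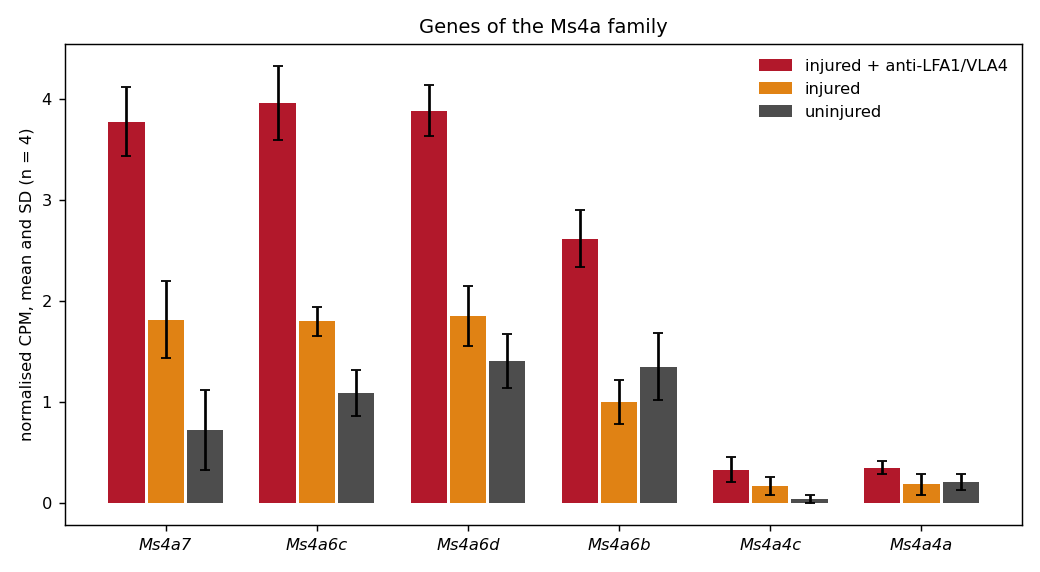
Mean level of 6 genes of the Ms4a family in normalised CPM, with SD over 4 libraries as error bars, in injured mice given anti-LFA1/VLA4, injured mice and uninjured mice from left to right within each gene. Ms4a7 and Ms4a6c step down over the groups, whereas Ms4a6b is at 2.62 CPM in treated mice against 0.995 in injured and 1.35 in uninjured mice.

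Mrc1, the mannose receptor that takes up glycoproteins from perivascular fluid, lies on chromosome 2 at 14229392 to 14332057 and had the most reads of the 10 genes. It had 113, 112, 143 and 114 reads in treated, 84, 80, 96 and 76 in injured and 74, 53, 62 and 63 in uninjured libraries. Treated libraries stood above all others, and injured and uninjured libraries overlapped in CPM. Levels were 8.74 ± 0.999 CPM in treated, 5.15 ± 0.546 in injured and 4.20 ± 0.621 in uninjured mice (SD, n = 4). Mrc1 was 1.70-fold higher in treated than in injured mice (log2 fold change 0.76, SE 0.12, edgeR adjusted p = 0.00135) and 2.08-fold higher than in uninjured mice (SE 0.13, edgeR adjusted p = 0.000151). Injured against uninjured mice gave a log2 fold change of 0.29 (SE 0.13, edgeR adjusted p = 0.120). That value passed at 0.37 under scaling by library size alone (edgeR adjusted p = 0.0482), at 0.44 in limma on TPM (adjusted p = 0.0383) and at 0.54 with the GC and length trend removed (edgeR adjusted p = 0.00626). A microRNA gene, Mir511, lies within Mrc1 on the same strand.

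Cd163, the receptor that takes up haemoglobin bound to haptoglobin, lies on chromosome 6 at 124304656 to 124330527. It had 18, 18, 33 and 22 reads in treated, 19, 24, 13 and 13 in injured and 28, 12, 18 and 20 in uninjured libraries. The 3 groups overlapped in every pair. Log2 fold changes were 0.64 for treated against injured mice (95% interval -0.022 to 1.29, edgeR adjusted p = 0.153), 0.34 for treated against uninjured mice (-0.30 to 0.99, edgeR adjusted p = 0.466) and -0.29 for injured against uninjured mice (-0.97 to 0.38, edgeR adjusted p = 0.504).

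Lyve1, a hyaluronan receptor of border macrophages and lymphatic vessels, lies on chromosome 7 at 110850607 to 110863239. It had 12, 12, 10 and 9 reads in treated, 8, 11, 14 and 7 in injured and 1, 10, 7 and 7 in uninjured libraries. In CPM every treated library stood above every uninjured one, and injured libraries overlapped both other groups. Log2 fold changes were 0.34 for treated against injured mice (95% interval -0.45 to 1.13, edgeR adjusted p = 0.537), 0.89 for treated against uninjured mice (0.029 to 1.76, edgeR adjusted p = 0.173) and 0.55 for injured against uninjured mice (-0.33 to 1.43, edgeR adjusted p = 0.329). Without uninjured replicate 1, which had 1 read, the changes against uninjured mice were 0.55 in treated and 0.20 in injured mice (edgeR adjusted p = 0.400 and 0.733). Lyve1 met the count filter with the help of the treated libraries. With no filter, the edgeR adjusted p was 0.573 for treated against injured and 0.225 for treated against uninjured mice.

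**Figure D3:**
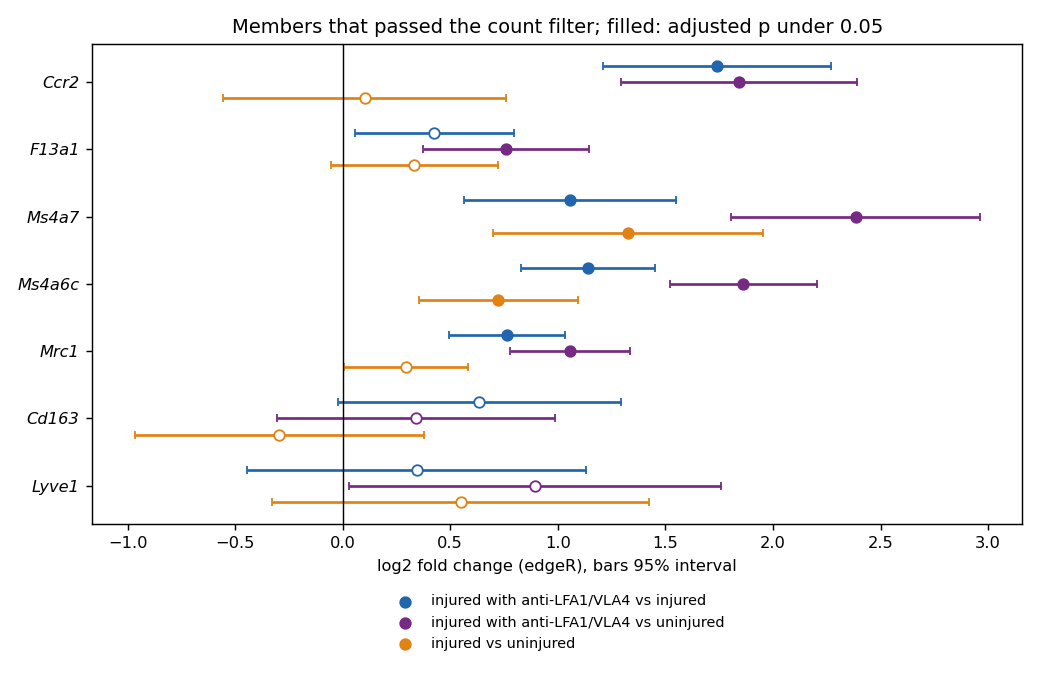
Log2 fold change (horizontal axis) of the 7 genes that passed the count filter in each of 3 comparisons, with 95% intervals from edgeR. Filled points passed an adjusted p of 0.05. Ccr2 lies at 1.74 and 1.84 in the antibody comparisons and at 0.10 in injured against uninjured mice, and Ms4a7 and Ms4a6c are filled in all 3.

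Read as separation between libraries, 6 of the 10 genes had treated libraries that all lay above the injured ones, and 5 of these were among the 7 tested, where 10.6% of all genes tested were separated in that direction. Against uninjured mice it was 9 of 10, or 6 of the 7 tested, where 9.01% of all genes were, with Cd163 the exception. In injured against uninjured mice it was 3 of 10 (Ms4a4c, Ms4a7 and Ms4a6c), or 2 of the 7 tested, where 17.4% of all genes were. Separation in the lower direction was seen for 0 of the 10 genes in each comparison, and for 11.4%, 6.56% and 12.9% of all genes tested in the same order.

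The order of the 10 genes was read per length, as TPM, since exon lengths run up to 6760 bases for Ccr2 and are as short as 868 bases for Ly6c2. In treated mice Ms4a7 (5.25 ± 0.618 TPM) and Ms4a6c (5.17 ± 0.383 TPM) led with overlapping libraries, followed by Mrc1 (3.93 ± 0.660 TPM) and F13a1 (2.66 ± 0.190 TPM), both separated from the next gene. Below them Ly6c2 (1.41 ± 0.620), Plac8 (1.33 ± 0.326), Cd163 (0.893 ± 0.319), Lyve1 (0.648 ± 0.0851), Ccr2 (0.648 ± 0.108) and Ms4a4c (0.452 ± 0.185 TPM) each overlapped the next. Injured mice had the same 4 genes in front, from Ms4a7 at 2.78 ± 0.428 to F13a1 at 2.20 ± 0.193 TPM, and their last was Plac8 at 0.0842 ± 0.106 TPM. In uninjured mice Mrc1 led at 1.87 ± 0.300 TPM, ahead of F13a1 at 1.56 ± 0.438, Ms4a6c at 1.41 ± 0.320 and Ms4a7 at 0.980 ± 0.513 TPM, and each gene overlapped the next down the order (SD, n = 4 throughout).

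Set against Csf1r, the growth factor receptor of all these macrophages and of microglia, the 4 genes called in treated against injured mice gave the following shares. Csf1r itself was at 118.9 ± 3.14 CPM in treated, 123.0 ± 3.26 in injured and 107.9 ± 4.29 in uninjured mice (SD, n = 4). As a share of Csf1r TPM, Ms4a7 was 9.14 ± 0.871% in treated, 4.26 ± 1.02% in injured and 1.89 ± 0.970% in uninjured mice. Ms4a6c was 9.03 ± 1.03%, 3.95 ± 0.337% and 2.73 ± 0.651% in the same order. Ccr2 was 1.12 ± 0.125%, 0.325 ± 0.112% and 0.343 ± 0.113%, and Mrc1 was 6.82 ± 0.829%, 3.89 ± 0.450% and 3.62 ± 0.610%. For Ccr2, Mrc1 and Ms4a6c the injured and uninjured ranges of this share overlapped, and the treated range lay above both. The share of Ms4a6c ran from 3.58 to 4.34% in injured and from 2.24 to 3.63% in uninjured mice. The ranges of Ms4a7 did not overlap in any pair of groups.

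Chemokines of the Ccl2 type were measured beside Ccr2. Of the 4 in the list, Ccl2 and Ccl7 had too few reads for the test. Ccl8, which in mice is known as a ligand of Ccr8, was at 1.84 ± 0.613 CPM in treated, 0.214 ± 0.103 in injured and 0.150 ± 0.114 in uninjured mice (SD, n = 4), and its log2 fold change was 3.05 against injured mice (SE 0.42, edgeR adjusted p = 0.000449) and 3.54 against uninjured mice (SE 0.46, edgeR adjusted p = 0.000244). Like Ccr2, Ccl8 met the count filter through the treated libraries, where it was high. It had 15 to 33 reads per library there, 2 to 6 in injured and 0 to 4 in uninjured mice. Ccl12 was at 0.856 ± 0.245 CPM in treated, 0.550 ± 0.0893 in injured and 0.250 ± 0.116 in uninjured mice. It passed against uninjured mice in treated mice (log2 fold change 1.74, edgeR adjusted p = 0.00542) and in injured mice (1.12, edgeR adjusted p = 0.0394). The last call was lost with no filter (edgeR adjusted p = 0.0652), by DESeq2 (adjusted p = 0.0902) and without any 1 of 7 libraries (uninjured replicates 2, 3 and 4, injured replicates 2, 3 and 4, and antibody-treated replicate 2). Treated against injured mice gave 0.62 for Ccl12 (edgeR adjusted p = 0.136), which was -0.012 with the GC and length trend removed.

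Other genes of the same cells were counted from lists of further markers. Of all genes tested, 10.9% were called higher and 10.7% lower in treated than in injured mice. Against uninjured mice these shares were 6.30% and 3.22% in treated mice and 11.9% and 11.0% in injured mice. Of 15 tested border macrophage genes, 8 were higher and 0 lower in treated than in injured mice (median log2 fold change 0.64), 11 were higher and 0 lower in treated than in uninjured mice (1.08), and 3 were higher and 0 lower in injured than in uninjured mice (0.41). At least 10 reads in every library were reached by 15 genes of that list in treated, 12 in injured and 10 in uninjured mice. Some, Ccl8 among them, thus met the count filter through the treated libraries, where they were high. Cd38, an ectoenzyme in that list, was at 5.88 ± 0.227 CPM in treated, 3.77 ± 0.103 in injured and 4.61 ± 0.422 in uninjured mice (edgeR adjusted p = 0.000866 for treated against injured mice). Of 11 tested monocyte genes, 4 were higher and 1 lower in treated than in injured mice (0.43), 7 were higher and 0 lower in treated than in uninjured mice (0.49), and 4 were higher and 1 lower in injured than in uninjured mice (0.14). Lyz2, lysozyme of monocytes, macrophages and neutrophils, was at 206.3 ± 32.8 CPM in treated, 87.8 ± 8.95 in injured and 42.9 ± 3.35 in uninjured mice (SD, n = 4), and passed in all 3 comparisons (edgeR adjusted p = 1.574e-05 for treated against injured mice). The gene that was lower in treated than in injured mice was Nr4a1, a nuclear receptor that patrolling monocytes need and that active neurons also make (log2 fold change -0.55, SE 0.06, edgeR adjusted p = 0.000104). The calls of Cd38 (log2 fold change 0.35, edgeR adjusted p = 0.0379) and Nr4a1 (0.22, edgeR adjusted p = 0.0441) as higher in treated than in uninjured mice are among the counts above. With no filter they were lost (edgeR adjusted p = 0.0755 and 0.0858), as they were with only those groups in the fit, in limma on TPM and without most single libraries. Among general myeloid genes, 5 of 12 were higher in treated than in injured mice (0.24), 8 of 12 in treated than in uninjured mice (0.68) and 8 of 12 in injured than in uninjured mice (0.44), with 0 lower in each. Of 10 homeostatic microglia genes, 3 were higher and 0 lower in treated than in injured mice (0.064), 3 and 0 in treated against uninjured mice (0.023), and 2 were higher and 2 lower in injured than in uninjured mice (0.11). Gpr34, a receptor of microglia, was higher in treated than in injured mice (log2 fold change 0.57, edgeR adjusted p = 0.00320) and lower in injured than in uninjured mice (-0.48, edgeR adjusted p = 0.0107). Both calls were lost when a GC and length trend was taken out (0.14 and -0.11, edgeR adjusted p = 0.193 and 0.294). At an unadjusted p under 0.05 in edgeR, the counts given as 0 lower stayed 0 with 2 exceptions: 1 border macrophage gene was lower in injured than in uninjured mice, and 2 microglia genes were lower in treated than in injured mice. P2ry12, a purine receptor of microglia, was at 35.1 ± 1.81 CPM in treated, 23.9 ± 4.17 in injured and 40.9 ± 4.24 in uninjured mice (edgeR adjusted p = 0.00592 for treated against injured mice and 0.00182 for injured against uninjured mice).

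Markers of tissue outside the brain and of blood moved with the antibody group, and their part in the results was not tested. Beside the counts below, 10.9% of all genes tested were called higher in treated than in injured mice. All 10 skeletal muscle genes were higher in treated than in injured mice, and their summed level was 129.9 to 166.3 CPM in treated, 14.7 to 17.5 in injured and 10.8 to 15.4 in uninjured libraries. In injured and uninjured mice, 3 and 2 of these genes had at least 10 reads in every library. Some thus met the count filter through the treated libraries. The summed level of 7 red blood cell genes was 145.4 to 272.0 CPM in treated, 45.5 to 52.2 in injured and 35.4 to 48.9 in uninjured libraries, and 5 of 5 tested were higher in treated than in injured mice. For 12 neutrophil genes it was 23.0 to 27.2, 12.6 to 14.2 and 6.84 to 8.87 CPM in the same order, with 4 of 5 tested higher in treated than in injured mice and with Ly6g, a defining marker, at 0 reads in all 12 libraries. At least 10 reads in every library were reached by 5 neutrophil genes in treated, 1 in injured and 1 in uninjured mice. Some of those tested thus met the count filter through the treated libraries, where they were high. S100a9, a calcium-binding protein of neutrophils and monocytes, was at 4.77 ± 1.06 CPM in treated, 0.610 ± 0.263 in injured and 0.466 ± 0.0866 in uninjured mice (SD, n = 4). B and plasma cell genes summed to 141.0 to 182.8 CPM in treated, 104.4 to 110.9 in injured and 106.7 to 128.7 in uninjured libraries, and 3 of 5 tested were higher in treated than in injured mice. Here 5 genes had at least 10 reads in every library of treated mice, 3 in injured and 3 in uninjured mice, so the same limit of the filter holds. Igkc, the constant part of the kappa light chain, was at 32.4 ± 6.32 CPM in treated, 0.613 ± 0.151 in injured and 0.449 ± 0.0793 in uninjured mice. Meningeal fibroblast genes summed to 1031 to 1548, 919.7 to 1090.0 and 629.8 to 807.3 CPM in that order, with 4 of 10 higher in treated than in injured mice and 6 of 10 higher in injured than in uninjured mice. In treated against injured mice 0 of them were lower, where 10.7% of all genes tested were. Of the 4, Col1a1 was 3.77-fold and Col1a2 3.28-fold higher there (edgeR adjusted p = 1.196e-09 for each), which the sum does not show. In injured against uninjured mice, 1 of 10 muscle genes and 0 of 5 red blood cell genes were called higher. There 0 of 5 B and plasma cell genes and 1 of 5 neutrophil genes were called higher, and 0 genes of these lists were lower. At an unadjusted p under 0.05, edgeR gave 2, 0, 0 and 1 higher in the same order and 0 lower. Of all genes tested, 11.9% were called higher and 11.0% lower in that comparison.

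Within the treated group the libraries can be read side by side. Antibody-treated replicate 3 had the lowest summed level of muscle (129.9 CPM), red blood cell (145.4 CPM), B and plasma cell (141.0 CPM) and neutrophil genes (23.0 CPM) among the 4 treated libraries. That library had the highest level of Ccr2 (2.07 CPM), Ms4a7 (4.06), Ms4a4c (0.428), Mrc1 (10.2) and Cd163 (2.35) in the group, and the lowest of Plac8 (0.499) and F13a1 (4.06 CPM). Its Ly6c2 (0.428), Ms4a6c (3.85) and Lyve1 (0.713 CPM) lay between those of other treated libraries. Antibody-treated replicate 4 had the highest sums of muscle (166.3), red blood cell (272.0) and B and plasma cell genes (182.8 CPM). It also had the highest Plac8 (0.976) and Ms4a6c (4.50 CPM), and the lowest Ccr2 (1.65), Ly6c2 (0.225) and Lyve1 (0.676 CPM). Its Ms4a4c, F13a1, Ms4a7, Mrc1 and Cd163 lay between those of other treated libraries. Without antibody-treated replicate 3, Ccr2, Ms4a7, Ms4a6c and Mrc1 stayed called against both other groups. That fit keeps the treated libraries with more muscle and blood RNA. It therefore cannot separate the treatment from those tissues, whose part was not tested.

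**Figure D4:**
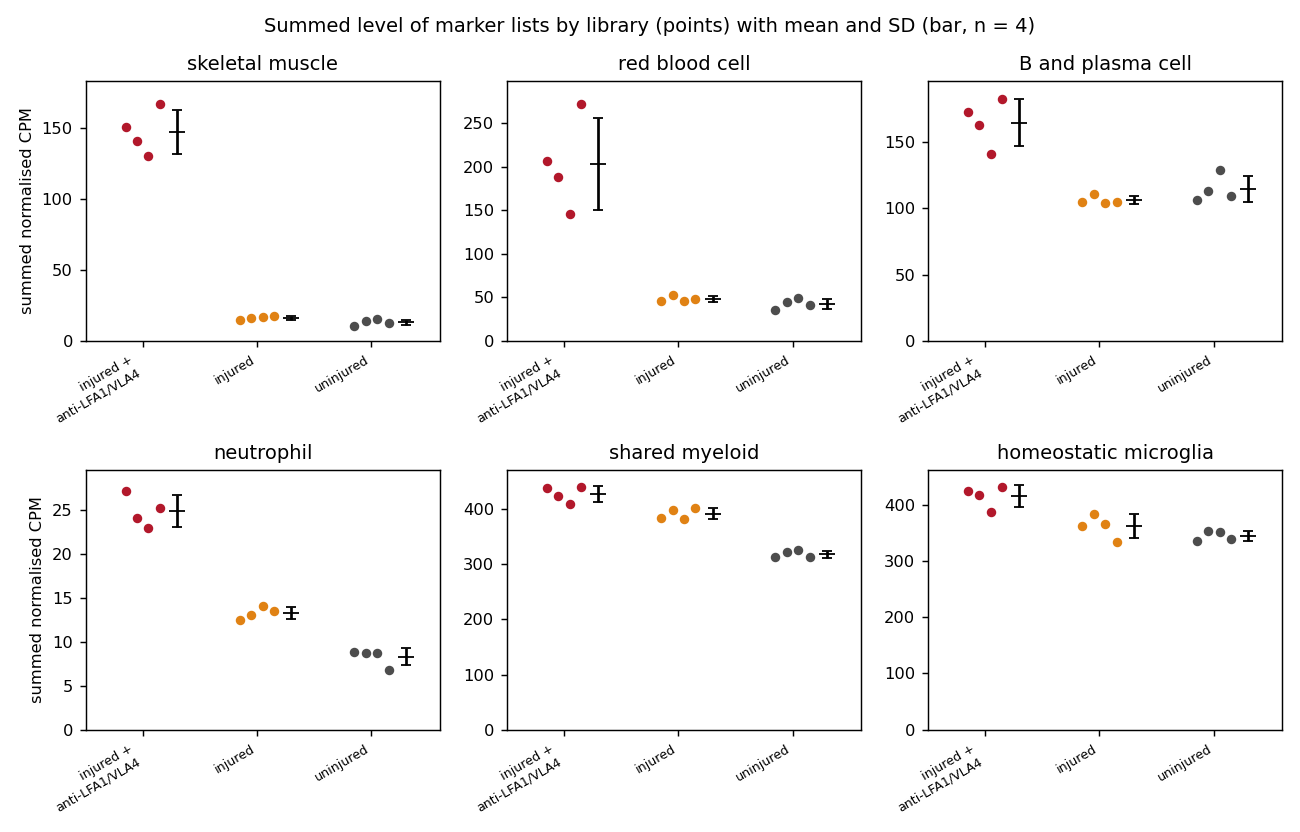
Summed level of 6 marker lists in normalised CPM by library, with mean and SD of 4, for injured mice given anti-LFA1/VLA4, injured mice and uninjured mice from left to right. The muscle list lies at 129.9 to 166.3 CPM in treated libraries against 14.7 to 17.5 in injured ones, whereas the homeostatic microglia list runs from 386.6 to 432.5 in treated, 333.3 to 384.2 in injured and 335.1 to 353.0 in uninjured libraries.

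Genes whose pattern over the 12 libraries was among the 8 most like the mean of the 7 tested markers included Cpz (Pearson r = 0.978), Col1a2 (0.975), Cd300a (0.968), Col1a1 (0.966), Col3a1 (0.962), Col5a2 (0.961) and Tbx15 (0.961). These values describe 12 libraries that share 3 groups and a depth difference between them. Cd300a, an inhibitory receptor of myeloid cells, was at 4.01 ± 0.214 CPM in treated, 2.59 ± 0.329 in injured and 2.20 ± 0.138 in uninjured mice (SD, n = 4).

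The bases before the start of the markers were searched for letters that myeloid factors bind. Of the 10 markers, 9 had an entry in the RefSeq promoter table (GRCm38.p6), and Lyve1 is named only. The core of the PU.1 site, GAGGAA on either strand, occurred in the 250 bases before the start in 5 of 9 markers and in 23.3% of 32851 promoters of the table. The C/EBP pattern TTGCNNAA occurred in 0 of 9, against 9.56% of all promoters, and the core of the interferon response element, GAAA repeated after any pair of bases, in 0 of 9, against 2.98%. Below, Ly6c2 (chr15:75111972-75112221, minus strand) and F13a1 (chr13:37050245-37050494, minus strand) show the match in capitals, and Ms4a7 (chr19:11336147-11336396, minus strand) shows a window with none of these letters.
Ly6c2: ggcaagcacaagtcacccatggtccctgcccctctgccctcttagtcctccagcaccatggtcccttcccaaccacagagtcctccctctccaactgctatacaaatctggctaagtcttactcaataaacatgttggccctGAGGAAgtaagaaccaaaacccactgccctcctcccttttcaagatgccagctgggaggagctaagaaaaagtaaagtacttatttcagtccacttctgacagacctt
F13a1: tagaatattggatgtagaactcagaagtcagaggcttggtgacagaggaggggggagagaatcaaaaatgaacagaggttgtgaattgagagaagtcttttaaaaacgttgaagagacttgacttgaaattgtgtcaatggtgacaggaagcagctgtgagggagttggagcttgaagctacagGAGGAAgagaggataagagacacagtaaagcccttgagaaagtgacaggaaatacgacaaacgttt
Ms4a7: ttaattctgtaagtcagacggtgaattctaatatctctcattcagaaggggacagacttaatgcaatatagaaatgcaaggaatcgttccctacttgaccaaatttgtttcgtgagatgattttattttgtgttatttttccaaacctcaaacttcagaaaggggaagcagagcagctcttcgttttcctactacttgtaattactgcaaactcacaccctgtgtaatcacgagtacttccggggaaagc
Ms4a7 and Ms4a6c, which were higher in all 3 comparisons, had no such match in their windows, while Mrc1 had 3 matches and Plac8 had 2. A match is a description of letters and not of binding.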

How the data were processed

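Total RNA of brain tissue from 12 mice was sequenced. Trimmomatic 0.39, FastQC 0.11.8 and CASAVA 1.8.2 are the tools in the submitters' processing notes, which also give GRCm38 as the build. The aligner, the counting program and any use of strand were not given. The counts are named in the headers: the authors deposited counts of total and unique reads over exons, junctions and introns. Their TPM could be recomputed from the deposited exon reads in all 12 libraries. Tests used total exon reads in edgeR 4.0.16 (R 4.3.3): filterByExpr by group, TMM scaling, group as the only term, 9 residual degrees of freedom, two-sided, Benjamini-Hochberg adjusted over 14771 genes at 0.05. Alternatives used DESeq2 1.42.0, limma 3.58.1 on log2(TPM + 0.1), a GC and length trend (mgcv 1.9.3), other scalings and filters, unique reads, a replicate block and each library left out. Code was tested on simulated data. Libraries with the same replicate number in different groups were not treated as pairs in the main fit. Correlations of their deviations ran from -0.532 to 0.434, which does not settle whether any were paired. All 10 markers are named. From each other list the text may name the 2 genes of smallest p for treated against injured mice, family genes with reads, markers at 0 and the 8 genes most alike in pattern, of which 1 is not reported here. S100a8, Jchain, Gpr34, Fcer1g and Cd68 were also read. The markers and lists were chosen with earlier results of these data known. No pair of libraries agreed within sampling noise.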

Additional observations from a re-analysis of the deposited data

Results flagged for a closer look

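In 2 of 30 groups of 4 libraries, 1 library stood apart from the other 3. Chance alone flags about 1 group in 20 where values are continuous and normal. That rate does not hold for counts as small as those of these 2 groups. Ly6c2 was at 0.0672 CPM in uninjured replicate 1, which is 1 read, and at 0 in the other uninjured libraries. Ms4a4c was at 0.301 CPM (5 reads) in injured replicate 3, and at 0.118 to 0.127 CPM (2 reads) in the other injured libraries. Both genes failed the count filter.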

How the results depend on the processing

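Of 456 values of the 7 tested markers under 22 alternatives, 444 kept their direction and their side of the threshold, and the calls of Ccr2, Ms4a7, Ms4a6c and Mrc1 in the antibody comparisons and of Ms4a7 and Ms4a6c in injured mice were kept in each. The log2 fold change of Ccr2 in injured against uninjured mice ran from -0.070 to 0.27 with each library left out, and turned negative without injured replicate 1 (-0.070), injured replicate 2 (-0.032) or uninjured replicate 3 (-0.044). Markers called higher than in uninjured mice were 8 of 10 without a filter in treated mice (906 of 20684 genes) and 4 of 7 in limma on TPM in injured mice (4864 of 14771 genes). With each library left out they numbered 2 to 2 in injured against uninjured mice, 4 to 6 in treated against uninjured and 4 to 6 in treated against injured mice. The cause of these shifts was not tested.

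Counts over all genes moved more. For injured against uninjured mice, genes higher and lower were 3157 and 995 with library size alone, 4864 and 334 in limma on TPM and 980 and 1069 without the GC and length trend, and 2511 were lower with only the compared groups in the fit. With each library left out, 685 to 2431 were higher and 580 to 2417 lower. For treated against uninjured mice, genes lower were 201 with library size alone, 884 by DESeq2, 232 with only the compared groups, 144 in limma on TPM and 213 with the replicate block, and without the GC and length trend 1524 were higher and 1082 lower. With each library left out, 640 to 2054 were higher and 213 to 1915 lower. For treated against injured mice, 1058 were higher with only the compared groups, 649 were higher and 3500 lower in limma on TPM, and leaving out each library gave 1053 to 1957 higher and 837 to 1816 lower. Library size alone moved the median of all genes in injured against uninjured mice to 0.11 and the share of calls that were higher to 76.0% (51.9% as reported), and to 86.3% (66.2%) in treated against uninjured mice. In limma on TPM these shares were 93.6% and 87.3%, and 15.6% (50.5%) in treated against injured mice, with medians of 0.18, 0.015 and -0.15.

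Among other genes read, Jchain in injured against uninjured mice (-0.037) became 0.043 with library size alone, 0.25 in limma on TPM and 0.24 without the GC and length trend, and ran from -0.26 to 0.44 with each library left out. In limma on TPM Ly6c1 and Ly6a turned to 0.059 and 0.069 there, and without the GC and length trend Ly6c1 in treated against uninjured mice turned to -0.0035 and Ccl12 in treated against injured mice to -0.012. The replicate block changed no call of a marker, and it ended the calls of Ccl12 in injured against uninjured mice (adjusted p = 0.0797) and of Nr4a1 (0.0767) and Cd38 (0.0916) in treated against uninjured mice. These last 2 calls were also lost with 1 library left out, at adjusted p of 0.0532 to 0.134 for Nr4a1 (11 of 12 libraries) and 0.0508 to 0.117 for Cd38 (10 of 12). Depth limits Ly6c2, Plac8 and Ms4a4c, with at most 13 reads in any library.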

Other observations

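Other cell type lists were read beside the markers. Of all genes tested, 10.9% were called higher and 10.7% lower in treated than in injured mice. Against uninjured mice these shares were 6.30% and 3.22% in treated mice and 11.9% and 11.0% in injured mice. A count of 1 gene does not show a change in the cells a list is named for. Of 6 tested dendritic cell genes, 1 was higher in treated than in injured mice, and 2 were higher in each group of injured mice than in uninjured mice. Tests were edgeR adjusted p-values at 0.05. Of 3 tested T and NK cell genes, 0 differed between treated and injured mice, also at an unadjusted p under 0.05, and 1 was lower in each group of injured mice than in uninjured mice. Of 4 tested lymphatic endothelial genes, 1 was higher in treated than in injured mice and 0 differed between injured and uninjured mice, also unadjusted. Of 5 tested marrow progenitor genes, 0 were higher (1 unadjusted) and 1 lower in treated than in injured mice, and 0 differed between injured and uninjured mice, where 1 was higher unadjusted. In treated against injured mice, the dendritic, lymphatic and marrow genes called were Bst2, Pdpn and Cd34.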
